A study of Mus musculus with 2 samples.

Results

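The CXCR3 axis and the interferon gamma pathway were followed through 6 genes: the chemokine ligands Cxcl9 and Cxcl10, their receptor Cxcr3, the cytokine Ifng, and the receptor chains Ifngr1 and Ifngr2. Members were chosen by symbol, and all 6 were found among the 27998 genes of the feature table. Levels were measured by droplet single-cell RNA sequencing with 10x Genomics Chromium 3' v3 chemistry, in 2 libraries of live CD45+ cells sorted from B16F10 tumors. B16F10 is a melanoma line of the C57BL/6 mouse, and it was grown under the skin of C57BL/6 hosts for 14 days. The control hosts carried the floxed allele alone (Usp18f/f), and the other hosts also carried Cre driven from the Lyz2 locus (Usp18f/f LysM-Cre), which is active in myeloid cells and not in all other cells. Each library pools 4 tumors and no group has a second library, so every difference below lies between 2 pools, carries a counting interval only and has no replicate check. The labels give neither the age nor the sex of the hosts.

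CXCL9 and CXCL10 are secreted chemokines that bind CXCR3, a receptor carried by effector T cells and natural killer (NK) cells, and draw those cells into inflamed tissue and tumors. Their genes are induced by interferon gamma, and Cxcl10 is also readily induced by type I interferon. Interferon gamma is made mainly by T and NK cells and signals through a receptor built of IFNGR1, which binds the cytokine, and IFNGR2, which is needed for signalling. Usp18 encodes a protease that removes ISG15 from proteins and restrains type I interferon receptor signalling.

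The ligand genes are neighbours. Cxcl9 lies on chromosome 5 from 92321347 to 92328079 and Cxcl10 from 92346638 to 92348889, both on the minus strand of GRCm38, with 18558 bases between them. Their promoters are shown because the ligands differed in how far their levels moved between the libraries. Each sequence runs 5′ to 3′ in the sense of the gene, from 250 bases before to 50 bases after its start, and comes from RefSeq on GRCm38.p6 (chr5:92328030-92328329 for Cxcl9 and chr5:92348840-92349139 for Cxcl10, minus strand). Capitals mark matches on either strand to an interferon-stimulated response element (GAAANNGAA), a gamma-activated site (TTCNNNGAA) or the NF-kB consensus.
Cxcl9: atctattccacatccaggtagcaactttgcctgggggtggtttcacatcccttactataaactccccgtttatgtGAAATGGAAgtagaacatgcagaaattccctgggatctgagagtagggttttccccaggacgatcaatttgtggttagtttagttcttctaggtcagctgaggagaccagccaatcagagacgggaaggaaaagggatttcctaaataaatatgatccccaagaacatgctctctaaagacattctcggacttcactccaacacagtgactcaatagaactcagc
Cxcl10: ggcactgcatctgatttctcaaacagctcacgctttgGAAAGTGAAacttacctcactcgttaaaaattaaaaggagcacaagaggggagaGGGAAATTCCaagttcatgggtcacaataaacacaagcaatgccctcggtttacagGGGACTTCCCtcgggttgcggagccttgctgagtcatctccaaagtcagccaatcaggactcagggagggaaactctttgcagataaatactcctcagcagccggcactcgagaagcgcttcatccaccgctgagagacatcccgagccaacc
Both promoters held 1 GAAANNGAA match, at bases -175 to -167 from the start of Cxcl9 and at bases -213 to -205 from that of Cxcl10. The Cxcl10 promoter also held 2 NF-kB matches, at bases -159 to -150 and -103 to -94, of which the Cxcl9 window had none. Neither held TTCNNNGAA, and no matches overlapped. Over all 32851 promoters of this length, 8.56% held GAAANNGAA, 8.30% held TTCNNNGAA and 4.51% held the NF-kB consensus, and 0.368% held both the first and the last. A match describes letters only, and a window without one says nothing of the factor.

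Several facts of the libraries touch every comparison. The control library held 7754 barcodes with a median of 2600 UMIs (unique molecular identifiers, here transcripts counted once), and the other held 6063 with a median of 4455. Filtering kept 6605 and 5435 cells, and 8 barcode sequences occurred in both libraries. Usp18 went against its label: mononuclear phagocytes held 18.1 CPM (UMIs of the gene for each 1000000 UMIs of the class) in the control and 96.9 CPM in the other, although 3' counts do not show which exons a transcript holds. Lyz2, whose locus carries Cre, went with the labels, at 9496 and 17.7 CPM. The second library is therefore called the library labelled knockout. Outside melanoma-like cells, 36.2% of the control cells with a sex marker held Xist rather than a Y-linked transcript, against 85.8% in the library labelled knockout, so sex and genotype cannot be told apart in whole classes. Results are therefore also given for the cells of each sex marker. Ptprc, which encodes CD45, was found in 87.6% and 86.0% of the cells outside the melanoma-like clusters, and melanoma-like cells, which the sort should remove, held 9.85 and 11.8 CPM of it.

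Levels are CPM of the summed cells of a class in 1 library, with 95% intervals that cover counting error only. Class names rest on marker transcripts and mean "like" throughout. Mononuclear phagocytes are 8 clusters of macrophage-like and monocyte-like cells (1722 and 2547 cells). In the control most of them lay in clusters led by C1qa, Vcan, Arg1 and Ccr2, and in the library labelled knockout in those led by Vcan, C1qa, Rsad2 and Ccl8. None of the members entered the clustering.

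**Figure D1:**
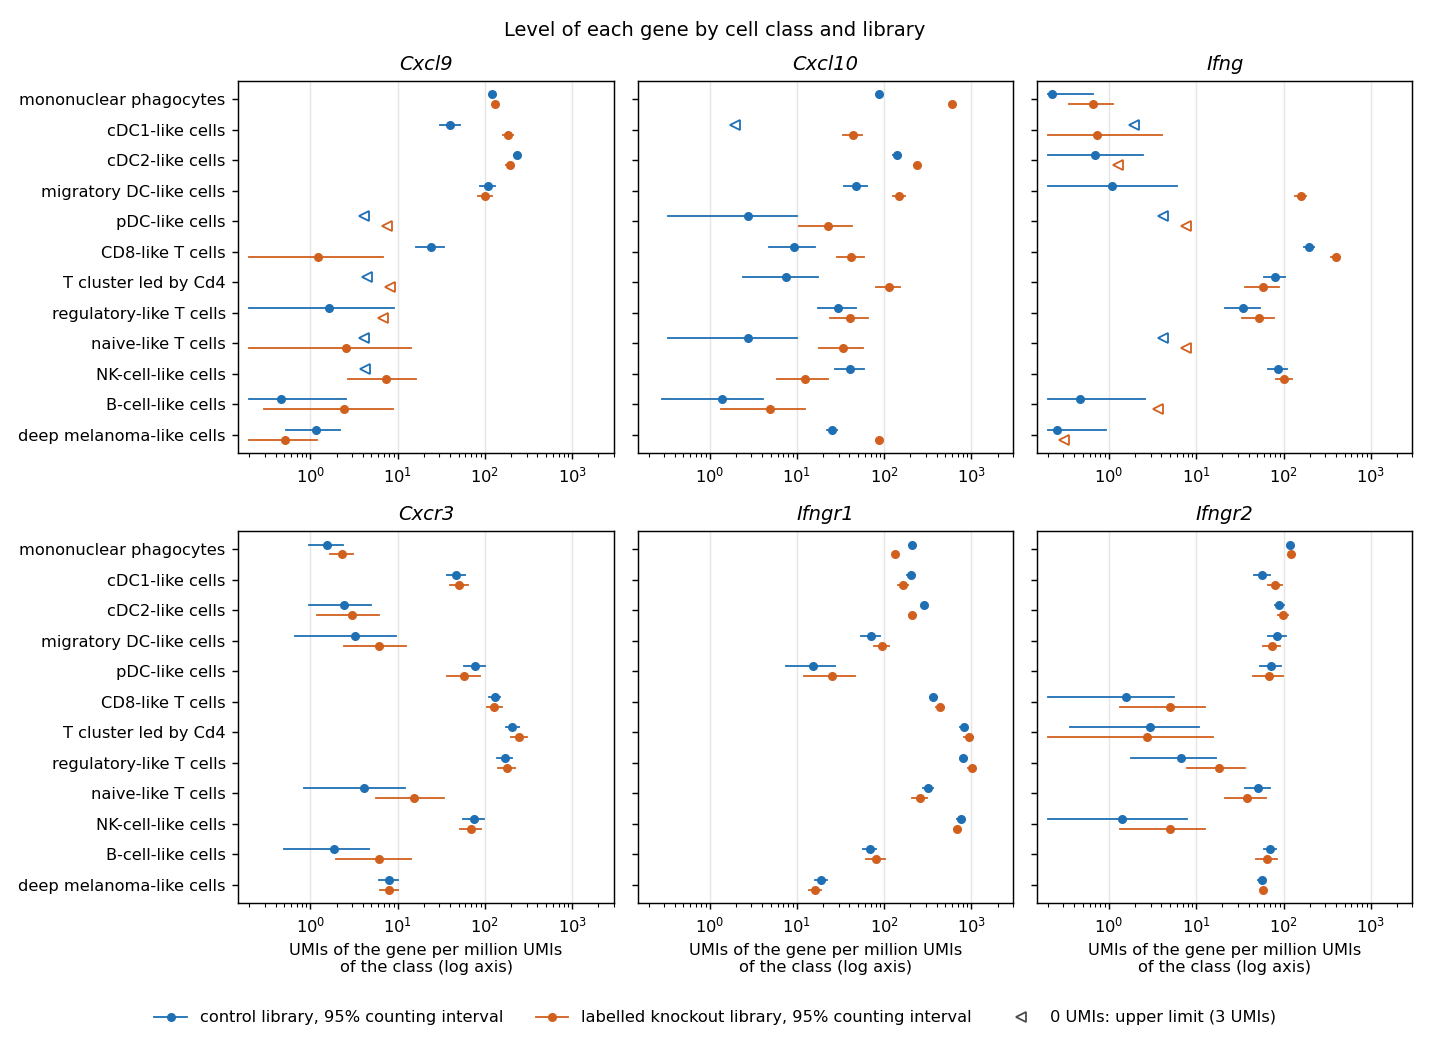
Level of each gene (UMIs for each 1000000 UMIs of the class, log axis) in 12 cell classes of the control (blue) and the library labelled knockout (orange), with 95% counting intervals drawn down to 0.2. Open triangles are upper limits where no UMI was found. Most ligand UMIs lie in phagocytes and dendritic cells, and Cxcr3 and Ifng are high in T and NK cells. Cxcr3 is also counted in pDC-like cells (76.9 and 58.4 CPM) and cDC1-like cells (46.8 and 51.1 CPM). Ifng is also counted in migratory DC-like cells (1.08 and 157 CPM). Cxcl10 in mononuclear phagocytes goes from 86.7 to 594 CPM.

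Most UMIs of the ligands lay in myeloid cells. Of all Cxcl9 UMIs, mononuclear phagocytes held 64.8% in the control and 74.4% in the library labelled knockout, and of all Cxcl10 UMIs 61.3% and 85.9%. These shares also depend on the number of cells: phagocytes were 1722 of 6605 kept cells in the control and 2547 of 5435 in the other. Under other processing, 51 of 60 recomputed shares of this kind, over all members, moved beyond their counting interval. Next for Cxcl9 came cDC2-like cells, a class of conventional dendritic cells, with 27.1% and 13.1% of its UMIs. They also held 21.6% and 4.09% of the Cxcl10 UMIs, and melanoma-like cells 10.4% and 6.49%. B-cell-like cells, taken as the background class, held 0.463 and 2.45 CPM of Cxcl9 and 1.39 and 4.90 CPM of Cxcl10.

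Cxcl10 was the member that differed most between the libraries in mononuclear phagocytes. It measured 86.7 CPM (81.8 to 91.8) in the control and 594 CPM (583 to 605) in the library labelled knockout, 6.85-fold higher (6.45 to 7.28). The share of these cells with a Cxcl10 UMI was 5.52% (4.49 to 6.70) and 23.7% (22.1 to 25.4). After each cell was thinned to 1000 UMIs, leaving out 56 and 246 shallower cells, it was 2.82% (2.08 to 3.73) and 15.4% (14.0 to 17.0). More cells held the transcript, and a positive cell held 12.2 UMIs in the control and 19.6 in the other. The same thinned share in B-cell-like cells was 0.149% and 0.468%. Their median depth before thinning was 1483 and 1761.5 UMIs, against 6614.5 and 5923 in the phagocytes.

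Among the genes tested in mononuclear phagocytes (at least 20 UMIs over both libraries), 0.948% were past 2-fold higher in the library labelled knockout and 0.0854% past 2-fold lower, on the scale of log2(CPM + 5). Of the members, 5 were tested, and 1, Cxcl10, was past 2-fold higher with a log2 ratio of 2.71. None was past 2-fold lower. This rule describes size and is no test. The log2 ratio of Cxcl10 was 1.89 when the limit on mitochondrial UMIs was set to 5%, and 3.53 when the 10 cells with most Cxcl10 were left out of each library.

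The Cxcl10 difference was not evenly spread over the phagocytes. It was higher in 7 of 8 clusters, beyond counting error in each. The cluster led by Rsad2, Ccl7 and Ccl12 held 80.8 CPM in the control (111 cells) and 1903 CPM in the library labelled knockout (437 cells), 23.5-fold more, and supplied 59.3% of the Cxcl10 UMIs of that library's phagocytes. Rsad2 and Isg15, interferon-stimulated genes, lead this cluster together with Cxcl10 itself, so its high level is a description. Cxcl10 was also among the leading genes of the shallow cluster led by Ccl8. The Arg1-led monocyte-like cluster went from 35.9 to 690 CPM, and the C1qa-led macrophage-like cluster from 34.8 to 226 CPM. The exception was the cycling cluster led by Mki67, with 77.5 and 42.4 CPM, where 1 control cell held 85.0% of the UMIs.

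**Figure D2:**
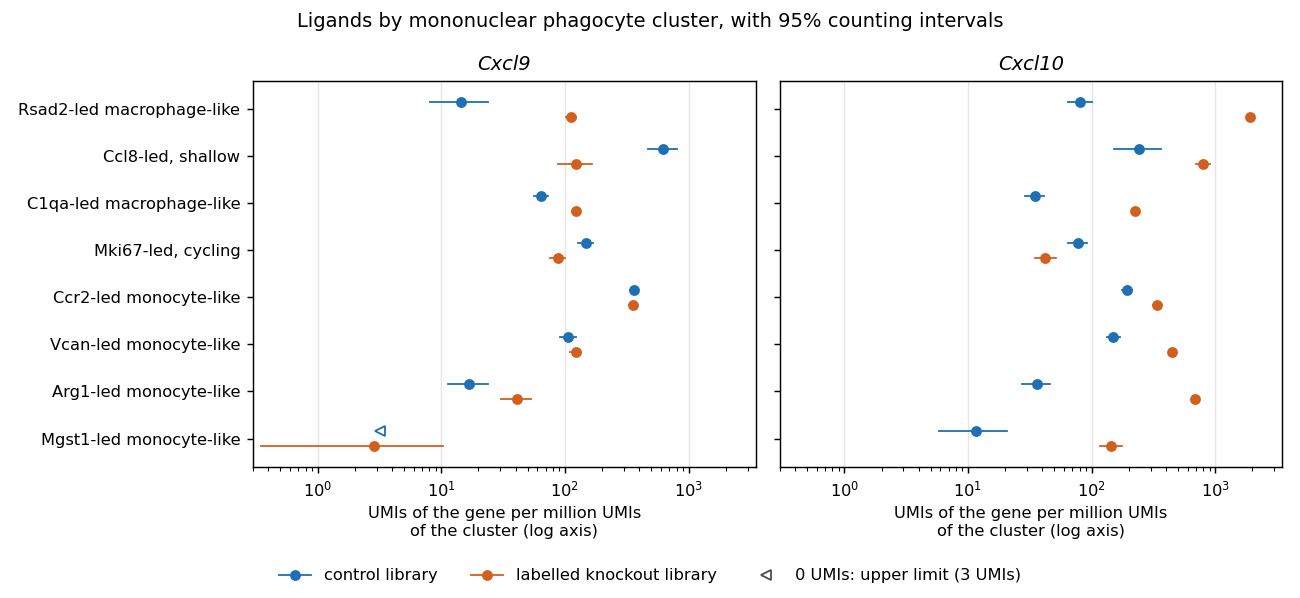
Cxcl9 and Cxcl10 (UMIs for each 1000000 UMIs of the cluster, log axis) in the 8 mononuclear phagocyte clusters, named by a leading gene, for the control (blue) and the library labelled knockout (orange), with 95% counting intervals. Cxcl10 is higher in the library labelled knockout in 7 of 8 clusters, and Cxcl9 has no common direction.

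Cxcl9 did not follow Cxcl10. In mononuclear phagocytes it measured 121 CPM (115 to 127) in the control and 129 CPM (124 to 134) in the library labelled knockout, which is 1.07 times as much (1.00 to 1.14). More cells held it, 6.21% (5.12 to 7.46) against 9.27% (8.17 to 10.5), or 3.54% and 5.13% after thinning, but a positive cell held 15.1 UMIs in the control and 10.9 in the other. Beyond counting error, 3 clusters were higher in the library labelled knockout, 2 were lower and 3 were neither. The Ccr2-led monocyte-like cluster, in which Cxcl9 was the leading gene, held 363 and 357 CPM and supplied 52.2% and 26.6% of the Cxcl9 UMIs of the phagocytes. The C1qa-led cluster went from 64.3 to 122 CPM and the Rsad2-led cluster from 14.4 to 112 CPM. The shallow Ccl8-led cluster went the other way, from 625 to 122 CPM, as did the cycling cluster, from 147 to 87.2 CPM. In the control 1 cell held 40.4% of the 57 Cxcl9 UMIs of the Ccl8-led cluster and 66.7% of the 15 of the Rsad2-led one. The highest control cell held 33.1% in the C1qa-led and 31.6% in the cycling cluster.

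Few cells carried a large part of each ligand, so the counting intervals understate the spread. In control mononuclear phagocytes the 10 cells with most UMIs held 44.5% of the Cxcl9 and 55.5% of the Cxcl10. In the library labelled knockout these shares were 26.8% and 16.3%. Cxcl10 was found more often in cells with Cxcl9 than in cells without it. Of Cxcl9-positive phagocytes, 28.0% (19.8 to 37.5) held Cxcl10 in the control, against 4.02% (3.12 to 5.10) of Cxcl9-negative ones. In the library labelled knockout these shares were 40.7% (34.4 to 47.2) and 22.0% (20.3 to 23.7). Positive cells were deeper, with medians of 8096 and 8605 UMIs against 6532 and 5767, and the part of depth in this was not tested.

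The sex markers moved with both ligands. In phagocytes with Xist and no Y-linked UMI (407 and 1692 cells), Cxcl10 measured 57.0 and 747 CPM, 13.1-fold higher in the library labelled knockout (11.3 to 15.3). In those with Y-linked UMIs and no Xist (821 and 326 cells) it measured 99.4 and 159 CPM, 1.60-fold higher (1.43 to 1.79). The direction was the same in both kinds of cell, and the counting intervals of the ratios did not overlap. Cxcl9 had opposite directions: 104 and 154 CPM in cells with Xist, a ratio of 1.47 (1.31 to 1.66), and 106 and 48.3 CPM in cells with Y-linked UMIs, a ratio of 0.455 (0.385 to 0.536). How sex, the makeup of the clusters and the pooled animals enter these values was not tested.

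**Figure D3:**
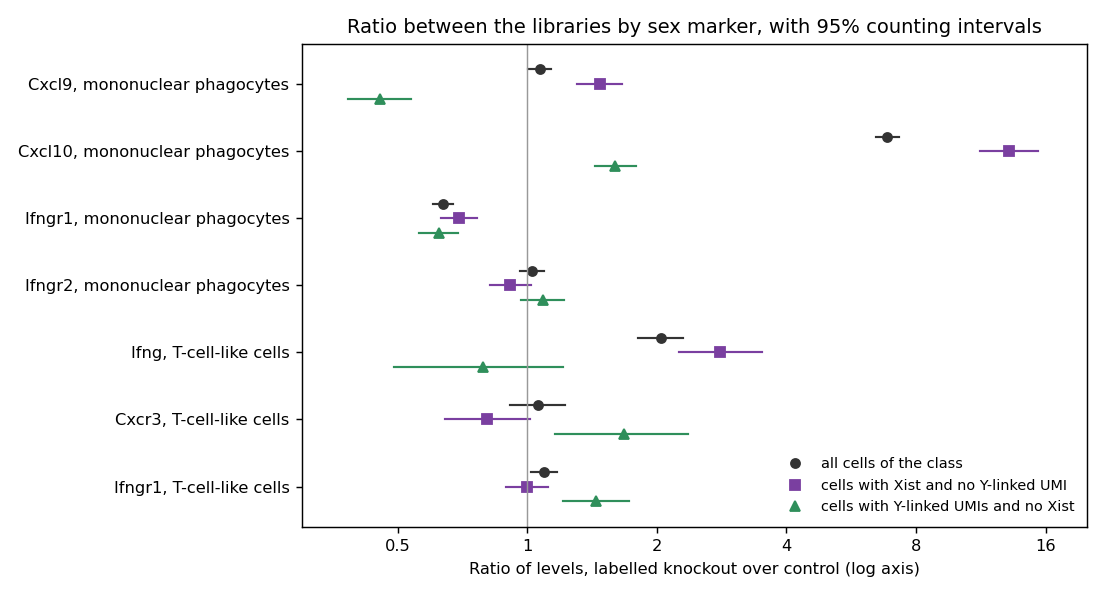
Ratio of the level in the library labelled knockout to the level in the control (log axis) for 7 combinations of gene and class, over all cells (black), cells with Xist only (purple) and cells with Y-linked UMIs only (green), with 95% counting intervals. Cxcl9 in mononuclear phagocytes lies on opposite sides of 1 in the cells of each sex marker, as does Ifng in T-cell-like cells, whose interval with Y-linked UMIs spans 1, while Ifngr1 in mononuclear phagocytes is below 1 in both.

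Dendritic cells held the ligands in different proportions. In cDC1-like cells, the cross-presenting class, Cxcl9 measured 40.3 CPM (30.9 to 51.7) in the control and 183 CPM (161 to 207) in the library labelled knockout, 4.54-fold higher (3.43 to 6.10). In the second value 1 cell held 35.5% of the UMIs. With Y-linked UMIs (95 and 22 cells) Cxcl9 measured 51.1 and 74.6 CPM, a ratio of 1.46 (0.831 to 2.47), which spans 1. The cDC1-like cells with Xist (12 and 92) held no Cxcl9 UMI in the control, which allows up to 20.02 CPM, and 226 CPM in the other. Cxcl10 was not found in 137 control cDC1-like cells, which allows up to 1.95 CPM, and measured 43.8 CPM in the library labelled knockout. That is at least 22.5-fold higher against the limit of 3 counts, and the counting interval of the ratio starts at 17.7. All 60 of these Cxcl10 UMIs lay in the 92 cells with Xist. Few cDC1-like cells of that library held Cxcl10: 4 of the 20 with Cxcl9 and 4 of the 103 without it. The cDC1-like cells with Y-linked UMIs held none in either library, which allows up to 2.69 and 11.2 CPM. In cDC2-like cells Cxcl10 measured 141 CPM (127 to 155) and 239 CPM (220.1 to 260.1), 1.70-fold higher, with 4.80% and 18.2% of the cells positive. It was not higher beyond counting error within either sex marker: the ratio was 0.870 (0.706 to 1.08) with Xist (50 and 216 cells) and 1.34 (0.936 to 1.88) with Y-linked UMIs (211 and 23 cells). Cxcl9 there measured 233 and 192 CPM, a ratio of 0.824 (0.730 to 0.930). That direction rested on few cells, since without the 10 cells with most Cxcl9 in each library the log2 ratio was 0.24 against -0.27. In cDC2-like cells with Xist Cxcl9 measured 593 and 207 CPM, a ratio of 0.350 (0.297 to 0.412). In those with Y-linked UMIs it measured 200 and 185 CPM, a ratio of 0.925 (0.631 to 1.32). Migratory DC-like cells held 107 and 100 CPM of Cxcl9, and 47.7 and 148 CPM of Cxcl10, of which 1 cell held 81.8% and 50.9%. For Cxcl10 the sex markers went opposite ways there. With Xist (18 and 109 cells) it had no UMI in the control, which allows up to 31.6 CPM, and 209 CPM in the other. With Y-linked UMIs (77 and 17 cells) it had 71.5 CPM in the control and no UMI in the library labelled knockout (upper limit 22.3 CPM). Cxcl9 was lower with either marker, although over the whole class it did not differ beyond counting error. With Xist it measured 63.1 and 22.2 CPM, a ratio of 0.352 (0.132 to 1.09), which spans 1. With Y-linked UMIs it measured 75.0 and 14.9 CPM, a ratio of 0.199 (0.0233 to 0.762). These subsets held few of the second library's 116 Cxcl9 UMIs, 17 with Xist and 2 with Y-linked UMIs. Plasmacytoid DC-like cells (pDC-like) had no Cxcl9 UMI in either library, which allows up to 4.12 and 7.61 CPM.

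Ranked by Cxcl9, the control classes ran cDC2-like, mononuclear phagocytes, migratory DC-like and cDC1-like cells, and of these neighbours mononuclear phagocytes and migratory DC-like cells did not differ beyond counting error. In the library labelled knockout the order was cDC2-like and cDC1-like cells, which did not differ, then mononuclear phagocytes, then migratory DC-like cells. For Cxcl10 the order of the first 3 classes was cDC2-like, mononuclear phagocytes and migratory DC-like cells in the control, while mononuclear phagocytes came first in the library labelled knockout, ahead of cDC2-like cells.

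Cxcl10 was also counted outside myeloid cells. The T cluster led by Cd4, part of the T-cell-like cells, measured 7.49 and 113 CPM, a ratio of 15.1 (5.98 to 49.0). Its cells with Xist (115 and 104) held 8.26 and 146 CPM. Those with Y-linked UMIs (95 and 19) held 9.89 CPM in the control and no UMI in the other (upper limit 57.0 CPM). Shallow melanoma-like cells of the library labelled knockout measured 129 CPM. Deep melanoma-like cells (142 and 191 cells with medians of 52102 and 53810 UMIs) measured 25.3 and 86.6 CPM, with 1 cell of the second library holding 29.6%. All 8 macrophage markers of the fixed list were counted in them, at 1224 and 1382 CPM in the cells with Cxcl10 and 1412 and 1661 CPM in those without. Of the cells with and without Cxcl10, 100% held some of these macrophage markers in both libraries, so the share does not separate them. The 8 monocyte markers of the fixed list stood at 37.4 and 51.6 CPM with Cxcl10 and at 72.2 and 59.9 CPM without. T-cell-like cells measured 9.49 and 41.6 CPM of Cxcl10, 4.39-fold higher in the library labelled knockout (3.01 to 6.52). With Xist the values were 20.5 and 49.7 CPM, and with Y-linked UMIs 3.54 and 4.07 CPM, the last from 1 UMI. Monocyte markers differed too: 6 of 8 were counted in the 41 positive cells of that library (1207 CPM, Vcan and Hp at 0), against 832 CPM in its negative cells, while in the control the positive cells held 278 and the negative cells 513 CPM. Macrophage markers went the other way, at 125 CPM in the positive and 169 CPM in the negative cells of the library labelled knockout, and 29.3 and 49.8 CPM in the control. NK-cell-like cells measured 40.9 and 12.4 CPM, a ratio of 0.304 (0.132 to 0.641), with 1 control cell holding 51.7% of the UMIs. By share of cells the direction was the other way, 1.92% and 4.25%, so no order is read there. The part of transcripts from other cells in these values was not tested.

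Ifng (chromosome 10, 118441046 to 118445892, plus strand, GRCm38) was counted mainly in T and NK cells. CD8-like T cells measured 196 CPM (172 to 221) in the control and 396 CPM (354 to 442) in the library labelled knockout, 2.03-fold higher (1.71 to 2.40). In CD8-like cells with Xist (96 and 169) it measured 247 and 454 CPM, a ratio of 1.84 (1.396 to 2.45). With Y-linked UMIs (150 and 18 cells) it measured 119.8 and 97.1 CPM, a ratio of 0.810 (0.289 to 1.84), the second from 6 UMIs. Ifng is among the leading genes of this cluster, so its rank there is a description, although the gene did not enter the clustering. The cycling T cells (58 and 41 cells) measured 198 and 398 CPM. NK-cell-like cells held 86.0 and 102 CPM, a ratio of 1.18 (0.839 to 1.68), which was not a detectable difference at this depth. The T cluster led by Cd4 measured 79.4 and 58.0 CPM, regulatory-like T cells 34.8 and 52.3 CPM, and the unnamed cluster led by Klrc2 and Klra1 74.6 and 65.8 CPM. Naive-like T cells had no Ifng UMI in 309 and 152 cells, which allows up to 4.16 and 7.73 CPM.

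In the control order of Ifng, cycling and CD8-like T cells did not differ beyond counting error, nor did the NK-cell-like, Cd4-led and Klrc2-led cells that came next, while regulatory-like cells stood apart below them.

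Over all T-cell-like cells (1260 and 713) Ifng measured 117 CPM (107 to 128) and 239 CPM (221 to 258), 2.04-fold higher in the library labelled knockout (1.81 to 2.30). This class leaves out the unnamed Klrc2-led cluster (371 and 301 cells), although 7 of 7 T-cell markers were detected there. Ifng in that cluster had a ratio of 0.883 (0.617 to 1.26). The share of T-cell-like cells with an Ifng UMI was 13.8% (11.95 to 15.8) and 19.6% (16.8 to 22.7), and after thinning 6.17% and 10.0%. B-cell-like cells stood at 0.0713% and at 0% (0 to 0.824) without thinning, at median depths of 1483 and 1761.5 UMIs against 2294.5 and 2596 in the T-cell-like cells. The 10 T-cell-like cells with most Ifng held 42.9% and 45.3% of its UMIs, and the single highest 18.3% and 8.78%. In T-cell-like cells with Xist Ifng measured 108 and 303 CPM, 2.80-fold higher (2.25 to 3.52). With Y-linked UMIs (452 and 63 cells) it measured 119 and 93.7 CPM, a ratio of 0.788 (0.490 to 1.21), so it was not higher in cells with Y-linked UMIs, and the difference between both kinds of cell was not tested.

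In T-cell-like cells 0.988% of the tested genes were past 2-fold higher and 0.128% past 2-fold lower. All 6 members were tested, and 1, Cxcl10 with a log2 ratio of 1.69, was past 2-fold higher. Ifng stood just short of that limit at 1.00. With a pseudocount of 1 CPM in place of 5, Ifng (1.02) was past 2-fold higher as well and Cxcl9 (-1.49) past 2-fold lower. In NK-cell-like cells 1.44% of the genes were past 2-fold higher and 2.26% past 2-fold lower. Of the 4 members tested there, none was past 2-fold higher and 1, Cxcl10 at -1.40, was past 2-fold lower.

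Ifng UMIs also appeared in migratory DC-like cells of the library labelled knockout, 181 UMIs in 14 of 159 cells (157 CPM), against 1 UMI in 139 control cells (1.08 CPM), a ratio of 144 (25.6 to 5733). A single cell held 55.2% of them. All 7 T-cell markers of the fixed list were counted in those 14 cells, at 1779 CPM, and each of the 14 cells held some, against 189 CPM in the other cells of that class and library. The 14 cells also had a median of 18112 UMIs, against 5872 in the others. Their migratory DC markers stood at 4396 CPM, against 8222 CPM.

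Cxcr3 was highest in the Cd4-led, regulatory-like, CD8-like and Klrc2-led clusters, and in the control pDC-like, NK-cell-like, cycling T and cDC1-like cells came next, with no difference between neighbours beyond counting error. It measured 207 CPM (174 to 244) and 249 CPM (200 to 306) in the T cluster led by Cd4, 169 and 180 CPM in regulatory-like T cells, and 130 and 129 CPM in CD8-like T cells. The Klrc2-led cluster held 124 and 117 CPM and NK-cell-like cells 74.7 and 69.5 CPM. Naive-like T cells held 4.16 and 15.5 CPM, so CD8-like cells held 31.2-fold more in the control (10.5 to 153) and 8.33-fold more in the other (3.70 to 23.2). Over all T-cell-like cells the level was 113 CPM (102 to 123) in the control and 119 CPM (106 to 133), a ratio of 1.06 (0.913 to 1.22). Cxcr3 lies on the X chromosome (101731535 to 101734269, minus strand, GRCm38). In T-cell-like cells with Xist it measured 144 and 116 CPM, a ratio of 0.807 (0.645 to 1.01). With Y-linked UMIs it measured 97.2 and 163 CPM, a ratio of 1.68 (1.16 to 2.37), on 40 UMIs in the library labelled knockout.

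Dendritic cells fell into a Cxcr3-positive and a Cxcr3-low set. pDC-like cells measured 76.9 CPM (58.1 to 99.9) and 58.4 CPM (37.0 to 87.6), and cDC1-like cells 46.8 CPM (36.6 to 59.0) and 51.1 CPM (39.8 to 64.6). By contrast cDC2-like cells measured 2.41 and 2.98 CPM, 19.4-fold below cDC1-like cells in the control (8.97 to 50.1) and 17.2-fold below in the other (7.91 to 44.3). Migratory DC-like cells held 3.25 and 6.05 CPM and mononuclear phagocytes 1.57 and 2.31 CPM. T-cell markers in the Cxcr3-positive cDC1-like cells stood at 4.93 and 21.6 CPM, below the 12.9 and 38.0 CPM of the negative ones. In pDC-like cells they stood at 32.9 and 109 CPM in the positive cells, against 35.0 and 33.1 CPM in the negative ones. Of the positive pDC-like cells, 9.30% and 33.3% held such a marker, against 12.4% and 13.2% of the negative ones. Cd3e and Cd3g were at 0 in the positive cells of both libraries, but Cd3e was at 0 in the negative ones as well. The part of transcripts from T cells there was not tested. The cDC1-like cells are deep, with medians of 10908 and 10666 UMIs: 35.0% and 33.3% held a Cxcr3 UMI as sequenced, and 2.99% and 1.68% after thinning to 1000 UMIs, against 14.1% and 12.2% in CD8-like T cells. Deep melanoma-like cells held 7.95 and 8.01 CPM.

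Cxcr3 and Ifng did not rank the T clusters alike. The Cd4-led cluster held 1.59-fold more Cxcr3 than CD8-like cells in the control (1.26 to 2.01) and 1.93-fold more in the other (1.44 to 2.58). CD8-like cells held 2.46-fold (1.83 to 3.38) and 6.83-fold (4.39 to 11.2) more Ifng than the Cd4-led cluster. Within CD8-like cells a cell's Ifng did not tell its Cxcr3 apart beyond counting error: Cxcr3 was found in 35.1% (25.6 to 45.4) of Ifng-positive and 32.6% (27.2 to 38.4) of Ifng-negative control cells, while the library labelled knockout had 27.4% (18.2 to 38.2) and 35.0% (27.2 to 43.4). In Cxcr3 the Cd4-led and regulatory-like clusters did not differ beyond counting error in the control, nor did the CD8-like and Klrc2-led clusters in either.

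The receptor chains of interferon gamma, Ifngr1 (chromosome 10, 19591949 to 19610229, plus strand) and Ifngr2 (chromosome 16, 91547072 to 91565623, plus strand), differed in where they were high. The 4 highest clusters for Ifngr1 were lymphocytes: regulatory-like T cells measured 804 and 1009.9 CPM, the Cd4-led cluster 815 and 925 CPM, the Klrc2-led cluster 792 and 731 CPM and NK-cell-like cells 749 and 689 CPM. CD8-like cells held 365 and 440 CPM, naive-like T cells 319 and 258 CPM, and mononuclear phagocytes 207 and 132 CPM. Neighbours among the first 4 did not differ beyond counting error in the control order, and in the library labelled knockout the first 2 stood apart from the next 2. The cluster led by Adgre4 and Ace came next in the control, apart from NK-cell-like cells, at 609 and 548 CPM, above the CD8-like and naive-like cells. Among the lowest classes were B-cell-like cells (68.1 and 80.8 CPM), deep melanoma-like cells (18.8 and 16.1 CPM) and pDC-like cells (15.1 and 25.4 CPM). Mononuclear phagocytes held 13.7-fold more Ifngr1 than pDC-like cells in the control (7.66 to 27.5) and 5.21-fold more in the other (2.83 to 10.9).

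Ifngr2 was low in the same lymphocyte clusters, apart from the naive-like one. CD8-like T cells held 2 and 4 Ifngr2 UMIs in 379 and 227 cells (1.55 and 4.95 CPM), NK-cell-like cells 1 and 4 UMIs (1.41 and 4.97 CPM) and the Cd4-led cluster 2 and 1 UMIs. Regulatory-like cells measured 6.62 and 18.2 CPM. Naive-like T cells, by contrast, measured 51.3 CPM (36.1 to 70.6) and 38.6 CPM (21.6 to 63.7), which is 33.0-fold (8.52 to 283) and 7.80-fold (2.49 to 32.3) above CD8-like cells. Median depths were 2296 and 2477.5 UMIs in naive-like and 2534 and 2880 in CD8-like cells. B-cell-like cells held 70.0 and 64.9 CPM, mononuclear phagocytes 120 and 123 CPM, and the unnamed cluster led by Adgre4 and Ace 186 and 196 CPM, the most among classes with at least 50 cells in each library.

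**Figure D4:**
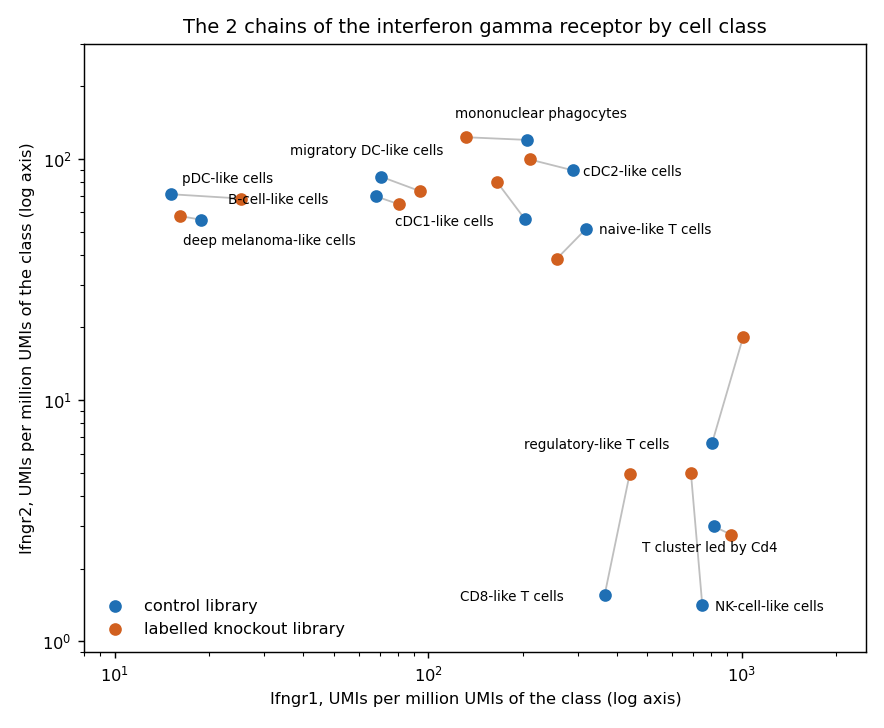
Ifngr1 (horizontal) against Ifngr2 (vertical), both in UMIs for each 1000000 UMIs of the class on log axes, in 12 cell classes of the control (blue) and the library labelled knockout (orange), joined by a grey line for each class. CD8-like, Cd4-led and NK-cell-like cells lie at high Ifngr1 with 1.41 to 4.97 CPM of Ifngr2, and naive-like T cells lie higher, at 51.3 and 38.6 CPM.

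The chains were also read within single cells. Of CD8-like cells with Ifngr1, 0.461% (0.0117 to 2.54) held Ifngr2 in the control and 1.85% (0.384 to 5.32) in the other. Of mononuclear phagocytes with Ifngr1, 60.4% (57.5 to 63.3) and 64.1% (61.5 to 66.8) did, and of those without it 43.7% and 39.8%. Phagocytes are deeper than CD8-like cells, so the CPM above are the comparison to read. B-cell-like cells, at medians of 1483 and 1761.5 UMIs, still had Ifngr2 in 14.4% and 16.1% of their Ifngr1-positive cells.

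Between the libraries Ifngr1 was lower in the phagocytes of the library labelled knockout, and Ifngr2 summed over them did not differ beyond counting error. In mononuclear phagocytes Ifngr1 measured 207 CPM (200 to 215) in the control and 132 CPM (127 to 137) in the library labelled knockout, 1.57-fold lower (1.49 to 1.66). Its share of positive cells was 64.1% (61.8 to 66.4) and 50.7% (48.7 to 52.6), or 19.9% and 13.5% after thinning. It was lower beyond counting error in 6 of 8 clusters and higher in none. In cells with Xist the ratio was 0.695 (0.632 to 0.764), and in cells with Y-linked UMIs 0.623 (0.561 to 0.692), so this difference held its direction in both. cDC2-like cells went the same way, with 289 and 211 CPM, 1.37-fold lower (1.22 to 1.53), and cDC1-like cells with 203 and 166 CPM, 1.22-fold lower (1.03 to 1.46). Ifngr2 in mononuclear phagocytes measured 120 CPM (114 to 126) and 123 CPM (118 to 128), a ratio of 1.03 (0.963 to 1.09). Over the 8 clusters 1 was higher beyond counting error, the Ccr2-led one (1.22, from 1.03 to 1.44), 1 was lower, the C1qa-led one (0.884, from 0.788 to 0.992), and 6 were neither. Monocyte-like cells measured 119 and 141 CPM, a ratio of 1.18 (1.08 to 1.30), and macrophage-like cells had a ratio of 0.940 (0.861 to 1.03). In lymphoid classes the ratio of Ifngr1 was 1.203 (1.05 to 1.38) in CD8-like cells, 1.26 (1.10 to 1.43) in regulatory-like cells and 0.920 (0.815 to 1.04) in NK-cell-like cells. With Xist only it was 0.932 (0.751 to 1.16) in CD8-like and 1.12 (0.899 to 1.40) in regulatory-like cells, and both intervals span 1. With Y-linked UMIs only it was 1.44 (0.910 to 2.20) and 1.484 (1.04 to 2.07), on 18 and 14 cells of the library labelled knockout. The direction over all CD8-like cells also turned with the limit of 5% mitochondrial UMIs, where the log2 ratio was -0.12 against 0.26.

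Other genes of the pathway were read from a list of 29, of which 28 are in the feature table. In mononuclear phagocytes 25 were tested, 2 were past 2-fold higher in the library labelled knockout and 0 past 2-fold lower. Over all genes tested there, 0.948% were past 2-fold higher and 0.0854% past 2-fold lower. The median log2 ratio of the list was 0.25, against -0.02 over all genes tested. The 2 were Ccl5, a chemokine that attracts T cells, with 36.1 and 108 CPM, and Socs1, an inhibitor of JAK kinases induced by interferon, with 11.1 and 31.3 CPM. The others named here were chosen after their values were seen. Below the limit stood Irf1, a transcription factor induced by interferon gamma, with 40.8 and 64.4 CPM, and Cd274, which encodes PD-L1, with 51.9 and 90.9 CPM. Jak1 (177 and 170 CPM) and Jak2 (42.6 and 42.9 CPM), the kinases bound to the receptor chains, differed by less than counting error. Ciita, which drives MHC class II genes, went the other way, with 33.1 and 21.1 CPM.

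In T-cell-like cells 22 genes of that list were tested, 0 were past 2-fold higher and 1 past 2-fold lower, Xcl1, the chemokine ligand of XCR1 on cDC1, with 221 and 85.5 CPM. Over all genes tested there, 0.988% were past 2-fold higher and 0.128% past 2-fold lower. The median log2 ratio of the list was -0.10, against -0.05 over all genes. In NK-cell-like cells 19 were tested and none was past 2-fold in either direction, with a median of -0.28 against -0.12. Over all genes tested in NK-cell-like cells, 1.44% were past 2-fold higher and 2.26% past 2-fold lower. Named after their values were seen, Il18r1, a receptor chain for a cytokine that induces Ifng, measured 434 and 245 CPM there, and Xcl1 measured 987 and 1200 CPM, higher in the library labelled knockout and so opposite to T-cell-like cells; this difference between classes was not tested.

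The genes whose pattern was most like each member were taken from Pearson correlations of log2(CPM + 5) over 28 profiles, 14 classes in each of 2 libraries, among 11065 genes. The profiles of 1 library share its depth and free RNA, and these values are a description with no test. Nearest to Cxcl9 were Dapk1 (r = 0.91), Rnf150 (0.91) and Anpep (0.89), and nearest to Cxcl10 were Ifit1 (0.82), Isg15 (0.81) and Rsad2 (0.76). Cxcr3 had Pmepa1 (0.89), Riok1 (0.84) and Ikzf2 (0.83), and Ifng had Baiap3 (0.93), Nkg7 (0.92) and Ctla2a (0.91). Ifngr1 had Ptpn22 (0.92), Lfng (0.92) and Pitpnm1 (0.91), and Ifngr2 had Sgk3 (0.91), Skap2 (0.87) and Cnpy3 (0.87). Among the members themselves the ligands correlated at 0.54, Cxcr3 with Ifng at 0.70, and Ifngr2 at -0.85 with Cxcr3 and at -0.84 with Ifng.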

How the data were processed

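Live CD45+ cells of 2 libraries, each from 4 pooled tumors, were read from the count matrices the authors deposited, which hold whole UMI counts for 27998 genes and a lowest total of 500 UMIs per barcode. Cell Ranger 3.0.1 and mm10 are named in the submitters' processing notes. Total counts were 43412346 and 48167632 UMIs, and with 1 library in each group there is no test and no replicate spread.

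A minimum of 200 genes and a limit of 10% mitochondrial UMIs left 7086 and 5729 barcodes, from which 481 and 294 likely doublets were taken out by scores against simulated doublets, at a rate of 0.8% for each 1000 barcodes. Cells of both libraries were clustered together on 2000 variable genes, 30 components, 15 neighbours and resolution 1, without 293 genes that include the members, interferon-stimulated, mitochondrial and sex-linked genes. Of 30 clusters, 26 were named from fixed marker lists, with at least 3 markers at a log2 fold of 0.5 in 10% of the cells, read against the 10 leading genes. A cluster was called shallow below the sample median divided by 3. The rule of 10% haemoglobin UMIs for erythroid cells and the rule for competing marker lists were set after seeing the data.

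CPM are summed UMIs of a class with exact Poisson intervals, and shares have exact Clopper-Pearson intervals, both at 95% and for counting error only. A count of 0 allows 3 counts. Log2 ratios use a pseudocount of 5 CPM over genes with at least 20 UMIs. The text names the 6 members in classes of at least 50 cells in each library, pathway genes past 2-fold and the 3 genes most like each member (at least 200 UMIs). The members and lists were chosen with earlier results of these data known. RefSeq promoters matched 6 of 6 members. Alternatives included other filters, clusterings, gates, thinning to 1000 UMIs and cells of each sex marker. Those that left out the shallow macrophage-like cluster, weighted clusters equally or left out the 10 cells with most UMIs were chosen after seeing the data. The statistics were tested on simulated data. Python 3.11.15, numpy 2.4.6, scipy 1.17.1, pandas 2.3.3, scikit-learn 1.9.0, leidenalg 0.10.2 and matplotlib 3.10.9 were used.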

Additional observations from a re-analysis of the deposited data

Results flagged for a closer look

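Cxcl9 in mononuclear phagocytes had opposite directions in cells of each sex marker, the log2 ratio being 0.54 where Xist was counted and -1.06 where Y-linked UMIs were. Cxcl9 was also opposite between classes, at -0.85 in T-cell-like cells, where 1 control cell held nearly all of its UMIs, and 2.05 in cDC1-like cells. Cxcl10 stood at -1.40 in NK-cell-like cells and 2.71 in mononuclear phagocytes. Ifngr1 stood at -0.63 in mononuclear phagocytes and 0.13 in T-cell-like cells. None of these differences was tested, since each group is 1 library. Outside the named classes, Cxcl10 measured 71.1 CPM (45.6 to 106) in the unnamed cluster led by Adgre4 and Ace in the library labelled knockout, from 24 UMIs in 10 of 90 cells, while none was found in 108 control cells, which allows up to 9.13 CPM.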

How the results depend on the processing

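Over 713 recomputed values of 71 results, 476 stayed within the counting interval of the result and 205 moved further. For counts of pathway genes a fixed margin took the place of the interval. The other 32 changed sign in results whose counting interval left out a ratio of 1. Sign changes in results whose interval spanned 1 are among the 476 and 205, so more than 32 values changed sign. The cause of these changes was not tested. Values are log2 ratios of the library labelled knockout to the control library. No paired analysis was possible because each group has 1 library, and no replicate could be left out. Cxcl9 in mononuclear phagocytes (0.09) had no stable direction: 1.08 and 0.37 with limits of 5% and 20% mitochondrial UMIs, 0.18 without doublet removal, 0.38 with each library clustered alone, 0.54 with Xist only, 0.46 without its 10 highest cells, -0.28 with gates on single cells, -0.026 as a mean over cells, -1.06 with Y-linked UMIs only, -0.14 after thinning and -0.45 with clusters weighted equally. Cxcl10 there (2.71) kept its direction throughout, at 1.89, 3.14, 2.93, 3.01, 3.60, 3.53, 2.38, 2.85 and 0.65 under the same settings up to Y-linked UMIs only, and 2.42 with equal weights. Ifngr1 there (-0.63) was -0.82 with the 5% limit, -0.51 clustered alone, -0.51 with gates, -0.55 as a mean over cells, -0.51 with Xist only and -0.32 with equal weights. Ifngr2 there (0.04) was -0.13 with Xist only, 0.27 thinned and 0.17 with equal weights. In T-cell-like cells Ifng (1.00) was 1.19 without doublet removal, 0.70 as a mean over cells, 1.44 with Xist only and -0.33 with Y-linked UMIs only. Cxcr3 (0.08) was -0.22 with the 5% limit, -0.30 with Xist only and 0.72 with Y-linked UMIs only. Ifng in NK-cell-like cells (0.23) was 1.17 with gates, -2.38 with Y-linked UMIs only and 0.78 thinned. The value of -2.38 rests on 1 UMI in 17 cells of the library labelled knockout, against 34 UMIs in 116 control cells. With a pseudocount of 1 CPM, 4 pathway genes rather than 2 were past 2-fold higher in mononuclear phagocytes, and 1 rather than 0 in T-cell-like cells.

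Signs also changed in other results. With the 5% limit Cxcl9 was 0.69 in T-cell-like and 0.48 in CD8-like cells, and Ifngr1 -0.10 and -0.12. Without doublet removal Cxcl9 in T-cell-like cells was 0.75, and without its highest cell 0.31. Clustered alone, CD8-like cells gave 0.35 for Cxcl9 and -0.33 for Ifngr1. With Xist only, Cxcl9 was 0.72 in T-cell-like and 0.39 in CD8-like cells, Cxcl10 -0.20 in cDC2-like and 0.44 in NK-cell-like cells, and Ifngr1 -6.92e-06 in T-cell-like and -0.10 in CD8-like cells. With Y-linked UMIs only, Cxcl10 was -3.94 in migratory DC-like cells, -0.38 in CD8-like cells and -1.58 in the Cd4-led cluster, and Ifng -0.29 in CD8-like cells. Thinned, Cxcl9 was 0.26 in T-cell-like and 0.33 in CD8-like cells, Cxcl10 0.053 in NK-cell-like cells, Ifngr1 -0.039 in CD8-like cells and Ifngr2 -0.62 in cDC1-like cells, which gates put at -0.44. Cxcl9 in cDC2-like cells was 0.058 as a mean over cells and 0.24 without its 10 highest cells.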
